A study of Citrullus lanatus with 26 samples.

Results

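The miRNAs miR165 and miR166 were examined in the flesh of watermelon fruit (Citrullus lanatus). Members were all listed names that carry the family number 165 or 166, whatever their species prefix. In the stage set, which follows fruit age, 1 of 208 names belonged to the family, cme-miR166b (cme marks melon in miRNA nomenclature). In the genotype set 205 of 1263 names belonged to it, 4 of miR165 and 201 of miR166, from 35 species prefixes. Many of these names carry the same counts in every library, so the 205 names hold 106 distinct count vectors (one vector is the row of counts over the 8 libraries) of 426 in the set.

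The stage set has 18 libraries of the cultivar 97103 (Citrullus lanatus subsp. vulgaris) at 0, 1, 5, 10, 20 and 30 DAP, the age unit of the labels, with 3 per age. The genotype set has 8 libraries, with 2 each of 97103 and of PI296341FR at 10 and at 30 DAP. No treatment or altered gene is labelled in any group. Nothing in the labels ties a replicate to its own plant; a p-value here covers library-to-library spread only, and that spread may be technical. The labelled flesh could not be checked against defining markers because the files list only miRNA names.

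miR165 and miR166 are nearly identical plant miRNAs that guide cleavage of the mRNAs of class III HD-ZIP transcription factors, the group that includes PHABULOSA, PHAVOLUTA, REVOLUTA, CORONA and ATHB8 in Arabidopsis. These factors set the upper side of lateral organs and act in the shoot meristem and in vascular tissue, and miR165 and miR166 limit them to those domains. In mature plant miRNA hairpins of this family the abundant product comes from the 3p arm, and the 5p product is its partner strand.

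Before the results, the libraries of the genotype set stood apart from one another in how much of their counts the family held. Summed over all names, family names took 30.7 and 71.5% of the counts in 97103 at 10 DAP, 56.4 and 91.8% in 97103 at 30 DAP, 30.2 and 28.9% in PI296341FR at 10 DAP, and 31.8 and 11.4% in PI296341FR at 30 DAP. Listed totals ran from 991234 to 60765998 counts in the genotype set and from 62050 to 153755 in the stage set. The trimmed-mean (TMM) scaling factors of the 30 DAP libraries were 0.596 and 0.406 in 97103 and 3.21 and 1.16 in PI296341FR. A difference in level in the genotype set therefore depends on scaling more than a ratio of 2 names within a library, and values under other scalings are given where they change a call.

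cme-miR166b was high in the youngest flesh, lowest at 10 DAP, and high again at 20 and 30 DAP. At 0 DAP the libraries had 7990, 5417 and 8369 counts and at 1 DAP 9212, 5983 and 8414, which made it the name with the second rank by count in each of these 6 libraries. At 5 DAP they had 2445, 2210 and 1930 counts, and at 10 DAP 1680, 987 and 1241. At 20 DAP they had 2926, 2363 and 1909 counts, and at 30 DAP 1902, 1905 and 3478. Every library of 5 and of 10 DAP lay below every library of 0 and of 1 DAP, and replicate 2 of 10 DAP was the lowest of all. In bulk flesh, fewer cells that make the miRNA and less of it per cell cannot be told apart.

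In TMM-scaled CPM, counts relative to the scaled library total, the level was 49500 ± 7307 at 0 DAP and 46478 ± 9866 at 1 DAP (SD, n = 3 for each age). It was 16486 ± 2609 at 5 DAP and 9153 ± 3132 at 10 DAP, so 10 DAP was 5.08-fold below 1 DAP. It then stood at 32485 ± 2723 at 20 DAP and 44182 ± 14508 at 30 DAP, 3.55-fold and 4.83-fold above 10 DAP. The drop and the recovery both exceeded the spread between libraries.

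**Figure D1:**
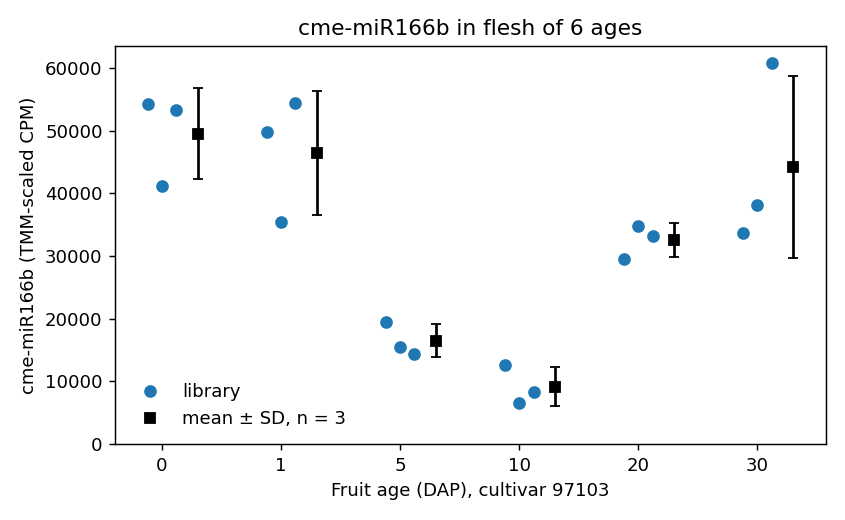
TMM-scaled CPM of cme-miR166b (linear axis from 0) against fruit age in DAP in 97103, with circles for the 3 libraries of each age and squares with bars for the mean and SD. The 10 DAP libraries lie lowest, between 6574 and 12638 CPM, and the 30 DAP libraries spread from 33706 to 60742.

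cme-miR166b differed between ages by edgeR's quasi-likelihood F test (F = 25.9, adjusted p = 5.37e-07), as did 85.8% of the 204 names tested. The descending order of levels was 0, 1, 30, 20, 5 and 10 DAP. Between neighbouring levels, the pair 0 and 1 DAP (log2 difference -0.09, SE 0.25, edgeR adjusted p = 0.906), 1 and 30 DAP (-0.07, adjusted p = 0.799) and 30 and 20 DAP (0.44, SE 0.25, adjusted p = 0.273) were not separated by the test. The neighbours 20 and 5 DAP differed (0.98, edgeR adjusted p = 0.00303), and so did 5 and 10 DAP (-0.85, SE 0.25, edgeR adjusted p = 0.0161). Of all names, edgeR called 0% between 0 and 1 DAP, 68.6% between 1 and 30 DAP, 19.6% between 20 and 30 DAP and 56.9% between 5 and 20 DAP.

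The fall from 1 to 5 DAP, 2.82-fold in mean CPM (edgeR adjusted p = 9.43e-05), came at a step where 53.4% of all names were called. The rise of 1.83 from 10 to 20 DAP (SE 0.26, edgeR adjusted p = 5.08e-05) came at a step where 19.6% were called, 9.31% of names being higher. From 5 to 10 DAP 39.2% of names were called, and there the call of cme-miR166b was lost without replicate 1 of 5 DAP (-0.61, edgeR adjusted p = 0.129), replicate 2 of 5 DAP (-0.76, adjusted p = 0.0682), replicate 2 of 10 DAP (-0.66, adjusted p = 0.0799) or replicate 3 of 10 DAP (-0.78, adjusted p = 0.0555).

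How far the level came back by 30 DAP depended on the scaling. As a share of all counts, cme-miR166b took 5.71 to 6.71% at 0 DAP, 4.96 to 6.44% at 1 DAP, 1.39 to 1.80% at 5 DAP and 0.863 to 1.26% at 10 DAP. It took 2.71 to 3.08% at 20 DAP and 2.37 to 3.22% at 30 DAP, with ranks of 6 to 7 and of 9. In shares, the 30 DAP libraries lay below all those of 0 DAP, whereas in scaled CPM the ages overlapped. The log2 difference of 30 against 0 DAP was -0.16 (SE 0.25, edgeR adjusted p = 0.553) with TMM factors and -1.26 (edgeR adjusted p = 2.93e-07) without them, where the median of all names moved to -1.06. Between these ages 67.6% of all names were called with TMM factors.

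In the genotype set the count vectors fell into 22 profiles, groups of vectors that lay within 0.1 of another in log2(count + 1) in every library. The profiles were drawn up after the values were seen and serve only to describe the copies. The 3 profiles of the most names carry the names of cme-miR166a (51 names, 25 vectors), cme-miR166b (51 names, 20 vectors) and cme-miR166d (45 names, 21 vectors), and that of cme-miR166e holds 17 names. The 10 vectors with the highest mean scaled CPM, led by mdm-miR166c, bdi-miR166e and bdi-miR166c, all belong to the profile of cme-miR166a. The 9 melon names show the same overlap: cme-miR166f has the counts of cme-miR166b in every library, cme-miR166c differs from it by at most 4 counts, and cme-miR166h follows cme-miR166d. In each library the counts of cme-miR166a were 99.7 to 100.7% of the sum of cme-miR166b and cme-miR166g. Names therefore share reads, and the members are not independent measurements.

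Flesh of PI296341FR held much less of most of the family than flesh of 97103 at 30 DAP. cme-miR166b had 6115 and 14597 scaled CPM in 97103 at 30 DAP and 370 and 171 in PI296341FR at 30 DAP. At 10 DAP it had 1516 and 3674 in 97103 and 843 and 1043 in PI296341FR. In scaled CPM the 97103 libraries of 30 DAP were the highest, the PI296341FR libraries of 30 DAP the lowest, and no group overlapped another. As a share of all counts, cme-miR166b took 0.119 and 0.0198% in PI296341FR at 30 DAP and 0.117 and 0.0929% at 10 DAP. The ages of PI296341FR thus overlapped in shares. In 97103 the shares were 0.365 and 0.592% at 30 DAP and 0.152 and 0.329% at 10 DAP. cme-miR166d, with counts of 135519 and 391412 in 97103 and 1291 and 2731 in PI296341FR at 30 DAP, followed the same order of groups in scaled CPM.

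At 30 DAP the log2 difference of PI296341FR against 97103 was -5.26 for cme-miR166b (SE 1.20, edgeR adjusted p = 0.00015) and -5.10 for cme-miR166d (edgeR adjusted p = 0.00015). The miR165 name aly-miR165a-3p had 264 and 464 counts in 97103 and 3 in each library of PI296341FR at 30 DAP. Its log2 difference was -4.94 (SE 1.15, edgeR adjusted p = 0.000194). These counts came from listed totals of 33672716 and 60765998 in 97103 and 991234 and 9320392 in PI296341FR. In scaled CPM the name had 13.1 and 18.8 in 97103 and 0.944 and 0.277 in PI296341FR. Both libraries of PI296341FR lay lower, but the low side rests on very few counts. The scaled value of replicate 1 also rests on its TMM factor of 3.21. cme-miR166a, whose counts include those of other profiles, had a smaller difference of -3.40 (SE 1.08, edgeR adjusted p = 0.0073).

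Of the 106 family vectors, all of which passed the filter on low counts, 84 were called lower and 0 higher by edgeR at 30 DAP, where DESeq2 called 83 lower and 0 higher and no vector was higher at an unadjusted p under 0.05. These are 16 of the 22 profiles. The share called by edgeR was 25.9% of all 1261 names, 15.4% being lower and 10.5% higher. Of the 319 vectors outside the family edgeR called 13.8%, 2.51% lower and 11.3% higher, and DESeq2 called 28 lower and 35 higher. In the main fit the family's median log2 difference was -3.49 beside -0.02 outside it. These medians depended on the scaling. They were -1.94 beside 1.27 in a fit on 1 name per distinct vector, and -1.29 beside 1.77 without scaling factors. The lowest vector was aqc-miR166e at -5.26, a copy within the profile of cme-miR166b, and the highest was cme-miR166i at 0.90.

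The number of calls rested on both the scaling and single libraries. Without scaling factors, which move the median of all names to 1.70, 45 vectors were lower and 18 higher. Of the 319 vectors outside the family, 8 were then lower and 93 higher. Fewer were called without replicate 2 of PI296341FR, without its replicate 1 or without replicate 2 of 97103, but not without replicate 1 of 97103. Each of these fits leaves 1 library in a group. The family's median was -3.52 beside -1.14 outside it, -4.05 beside 0.41, -2.37 beside 1.11 and -4.35 beside -0.05 in these 4 fits. cme-miR166b stayed called in each of these, with differences from -6.06 without replicate 1 of 97103 to -3.49 without its replicate 2, and without scaling factors it was -2.79 (edgeR adjusted p = 0.0374). aly-miR165a-3p had an edgeR adjusted p of 0.0619 without replicate 2 of PI296341FR and of 0.0717 in a fit on 1 name per distinct vector. cme-miR166a was not called without replicate 2 of 97103 (-1.86, edgeR adjusted p = 0.269), without replicate 1 of PI296341FR (-3.29, adjusted p = 0.103) or replicate 2 (-3.52, adjusted p = 0.0948), or without scaling factors (-1.21, adjusted p = 0.361).

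**Figure D2:**
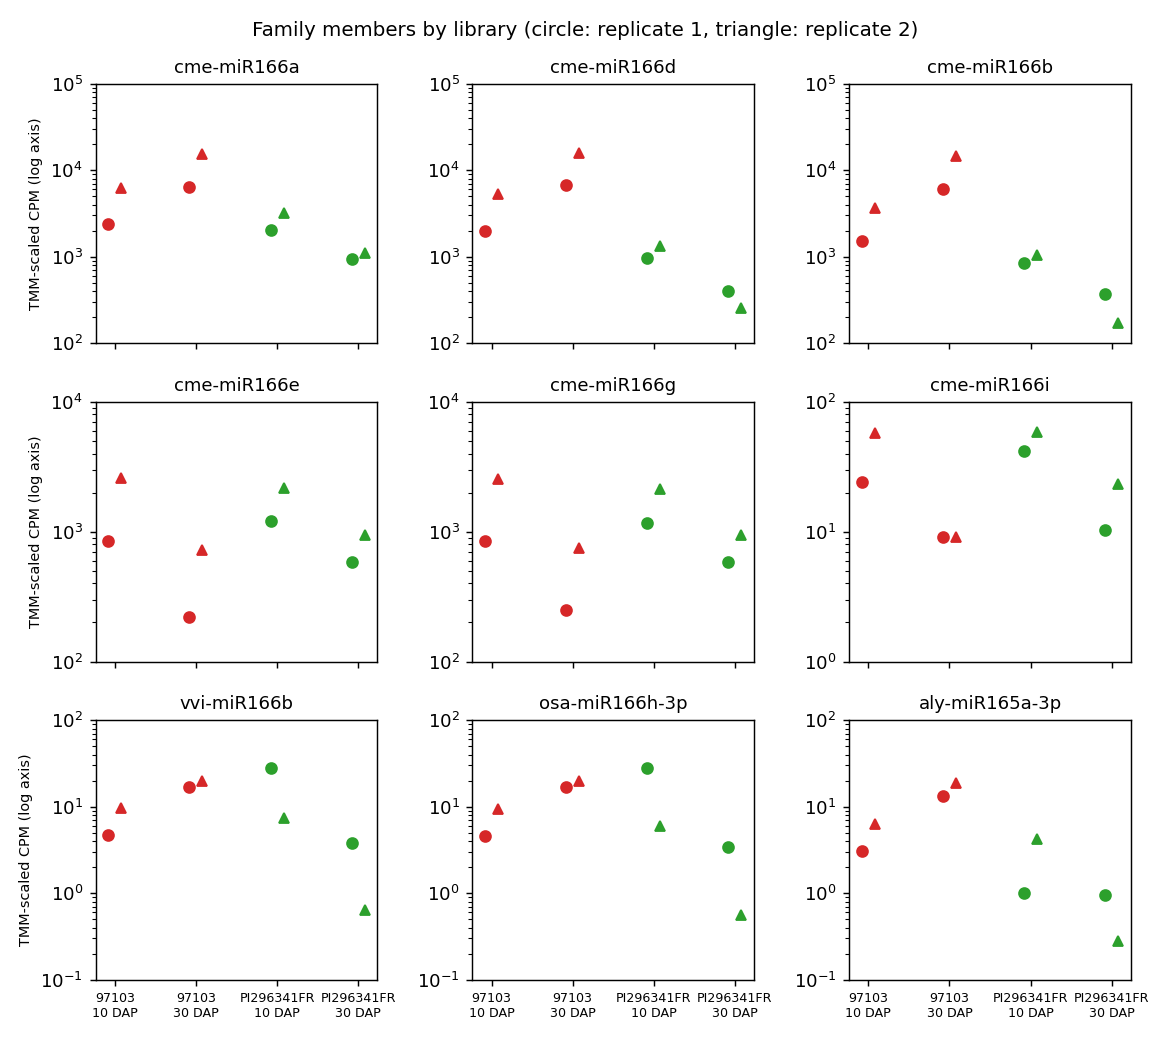
TMM-scaled CPM on log axes of 9 family names in the 8 genotype libraries, red for 97103 and green for PI296341FR, with circles for replicate 1 and triangles for replicate 2. cme-miR166b and cme-miR166d are highest in 97103 at 30 DAP and lowest in PI296341FR at 30 DAP, while cme-miR166e, cme-miR166g and cme-miR166i are not.

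The names cme-miR166e, cme-miR166g and cme-miR166i were not called at 30 DAP, and their values lay above 0. cme-miR166e had 4385 and 17898 counts in 97103 and 1865 and 10189 in PI296341FR at 30 DAP, or 218 and 726 against 587 and 942 scaled CPM. The genotypes overlapped, and the log2 difference was 0.70 (SE 1.09, edgeR adjusted p = 0.764). cme-miR166g stood at 0.61 (edgeR adjusted p = 0.804), and cme-miR166i, the least abundant melon name, at 0.90 (SE 1.19, edgeR adjusted p = 0.694). Without replicate 1 of 97103 at 30 DAP the values of cme-miR166e and cme-miR166g turned to -0.42 and -0.47, and without scaling factors cme-miR166e (2.81, edgeR adjusted p = 0.0364), cme-miR166g (2.71, adjusted p = 0.0396) and cme-miR166i (2.72, adjusted p = 0.0372) were called higher in PI296341FR. The profiles of gma-miR166r, aqc-miR166a and osa-miR166e-3p, with differences of -3.09 to -1.66, were not called either.

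Within a library the counts of cme-miR166e relative to those of cme-miR166b need no scaling. The ratio was 0.558 and 0.703 in 97103 at 10 DAP and 0.0357 and 0.0497 in 97103 at 30 DAP. It was 1.43 and 2.08 in PI296341FR at 10 DAP and 1.59 and 5.52 at 30 DAP. Every PI296341FR library lay above every 97103 library, and within 97103 both libraries of 30 DAP lay below both of 10 DAP. This pair of names was chosen after the values were seen, so the ratio is a description with no test.

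**Figure D3:**
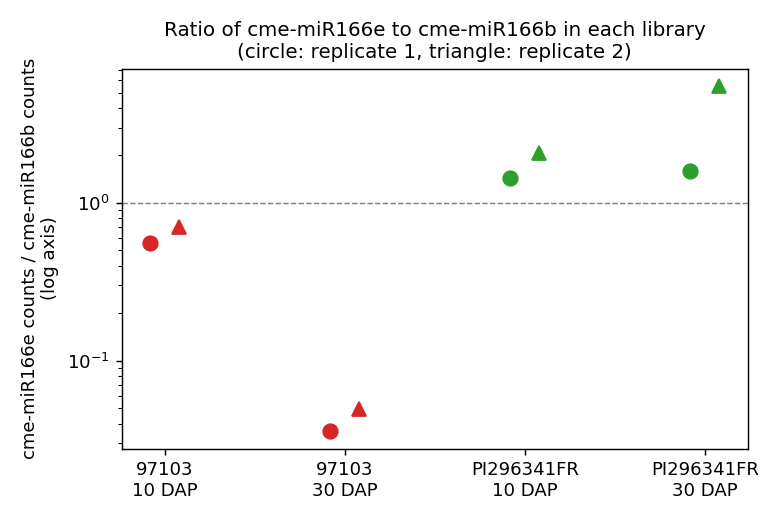
Counts of cme-miR166e divided by counts of cme-miR166b in each of the 8 genotype libraries (log axis, dashed line at 1), red for 97103 and green for PI296341FR, circles for replicate 1 and triangles for replicate 2. The 4 PI296341FR libraries lie between 1.43 and 5.52 and the 4 libraries of 97103 between 0.0357 and 0.703.

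vvi-miR166b and osa-miR166h-3p, grape and rice names of low abundance, were highest in another library than cme-miR166b, as were aqc-miR166a and aqc-miR166d. vvi-miR166b had 52 and 85 counts in 97103 at 10 DAP, 340 and 492 in 97103 at 30 DAP, 55 and 34 in PI296341FR at 10 DAP and 12 and 7 in PI296341FR at 30 DAP. The listed totals at 30 DAP were 33672716 and 60765998 in 97103 and 991234 and 9320392 in PI296341FR. As a share of these totals the genotypes overlapped at 30 DAP for both names. Replicate 1 of PI296341FR lay above both libraries of 97103, and replicate 2 lay below them. In scaled CPM vvi-miR166b had 16.9 and 20.0 in 97103 and 3.77 and 0.647 in PI296341FR at 30 DAP. It was highest in replicate 1 of PI296341FR at 10 DAP, at 28.0, while replicate 2 of that group had 7.50. At 30 DAP the log2 difference of PI296341FR against 97103 was -3.19 for vvi-miR166b (SE 1.07, edgeR adjusted p = 0.0128) and -3.34 for osa-miR166h-3p (SE 1.08, edgeR adjusted p = 0.00826). Neither was called without replicate 2 of 97103 at 30 DAP or replicate 2 of PI296341FR at 30 DAP (edgeR adjusted p = 0.229 to 0.264), DESeq2 called neither (adjusted p = 0.125 and 0.123), and without scaling factors they stood at -0.79 and -0.95.

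The 5p partner strand was counted under 8 names marked 5p, which hold 6 vectors. The name gma-miR166l, which gives no arm, carries the counts of aly-miR166c-5p in every library. csi-miR166e-5p had 343 and 34 counts in 97103 at 10 DAP, 1609 and 1538 in 97103 at 30 DAP, 54 and 159 in PI296341FR at 10 DAP, and 21 and 50 in PI296341FR at 30 DAP. It and the next most abundant, aly-miR166a-5p and gma-miR166a-5p, were lower in PI296341FR at 30 DAP, as were all 6 vectors, with log2 differences from -3.67 to -3.58 (edgeR adjusted p = 0.0235 to 0.0255). No 5p vector was called without replicate 2 of 97103 at 30 DAP, without either library of PI296341FR at 30 DAP, without scaling factors or with 1 name per distinct vector, where edgeR adjusted p-values ran from 0.0754 to 0.306. Mean scaled CPM of the 6 vectors ran from 66.8 to 71.3 in 97103 and from 5.61 to 5.65 in PI296341FR at that age. The libraries of 97103 at 10 DAP differed from each other, replicate 2 having more 3p and fewer 5p counts than replicate 1. The 5p names made up 1.14 to 2.0% of a 5p and 3p pair in replicate 1 and 0.0475 to 0.105% in replicate 2, over 8 pairs. In the other 6 libraries this share lay between 0.356 and 3.25%.

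At 10 DAP the genotypes were not separated by the test in any family vector. edgeR called 0 of 106 family vectors, with 0 at an unadjusted p under 0.05, where it called 0.0793% of all names and 0.313% of the vectors outside the family. DESeq2 also called 0 family vectors, and of the 319 vectors outside the family it called 14 higher and 0 lower. The family's median log2 difference was -0.73 beside 0.16 outside it, and 90 of 106 vectors, which share reads, lay below 0. This median rested on single libraries. It turned to 0.13 beside 0.997 without replicate 2 of 97103 at 10 DAP, and was -1.26 beside -0.23 without its replicate 1. cme-miR166b stood at -1.46 (SE 1.02, edgeR adjusted p = 0.529) and aly-miR165a-3p at -0.75 (SE 0.96, adjusted p = 0.689), while vvi-miR166b stood at 1.29 and osa-miR166h-3p at 1.25, above 0 (edgeR adjusted p = 0.635 and 0.653). The vectors ran from hvu-miR166b at -1.66 to aqc-miR166d at 1.32. Without replicate 1 of PI296341FR at 10 DAP, osa-miR166h-3p turned to -0.23.

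From 10 to 30 DAP the family's medians lay on opposite sides of 0 in the genotypes, and few vectors were called. In 97103 most vectors lay above 0, with a median of 1.54 beside -0.58 outside the family, and edgeR called 0 of 106, with 1 at an unadjusted p under 0.05. cme-miR166b stood at 2.0 (SE 1.03, edgeR adjusted p = 0.158), aly-miR165a-3p at 1.76, vvi-miR166b at 1.36 and osa-miR166h-3p at 1.39, and cme-miR166e at -1.86 (SE 1.12, edgeR adjusted p = 0.243). The highest vector was aly-miR166c-5p at 2.14 and the lowest cme-miR166i at -2.16. The call depended on the scaling and on the test. In edgeR, TMM factors computed without the family called 86 vectors higher, RLE factors 5 higher, and no factors 18 lower. Of the 319 vectors outside the family these settings called 50 and 32 higher and 72 lower. DESeq2 called 83 family vectors higher and 46 outside the family, with a family median of 2.66 like that of edgeR with RLE factors. With TMM factors edgeR called 19.3% of all names and 11% of the vectors outside the family, all of them lower.

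In PI296341FR every vector lay below 0 from 10 to 30 DAP in the main fit, with a median of -1.80 beside -0.28 outside the family. The size of this median depended on the scaling. It was -0.71 beside 0.06 with RLE factors and -0.60 beside 0.27 without factors. With 1 name per distinct vector it was -0.36 beside 0.49, and with TMM factors without the family -0.22 beside 0.81. In the main fit edgeR called 5 of 106 lower, where 11.4% of all names and 2.19% of the vectors outside the family were called, all of them lower. They were the 3 vectors of the profile of osa-miR166h-3p (-3.20 for that name, SE 1.08, edgeR adjusted p = 0.0299), vvi-miR166b (-3.11, SE 1.08, adjusted p = 0.0359) and aqc-miR166d (-3.05, adjusted p = 0.0439). No vector was called without any 1 of the 4 libraries of this genotype, by DESeq2, with RLE factors or without factors. Of the 319 vectors outside the family, DESeq2 called 32 higher and RLE factors 33 higher, with 0 lower in each, and without factors 0 were called. In the main fit cme-miR166b stood at -1.80 (SE 1.03, edgeR adjusted p = 0.210) and aly-miR165a-3p at -2.43 (SE 1.16, adjusted p = 0.168). The value nearest to 0 was that of osa-miR166e-3p, -0.60.

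Whether the change with age differed between the genotypes was tested as the interaction of genotype and age. edgeR called 0 of 106 family vectors, where 0.159% of all names and 0.627% of the vectors outside the family were called. DESeq2 called 58 family vectors lower, and of the 319 vectors outside the family 2 lower and 1 higher. At an unadjusted edgeR p under 0.05, 60 family vectors were lower, but this was not counted over other names. The interaction was -3.80 for cme-miR166b (SE 1.46, edgeR adjusted p = 0.134; DESeq2 -3.86, adjusted p = 0.0391). It was -4.19 for aly-miR165a-3p, -4.48 for vvi-miR166b and -4.59 for osa-miR166h-3p, each with an edgeR adjusted p of 0.134. The vectors ran from aly-miR166c-5p at -4.61 to mtr-miR166b, a copy within the profile of cme-miR166e, at 0.74.

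**Figure D4:**
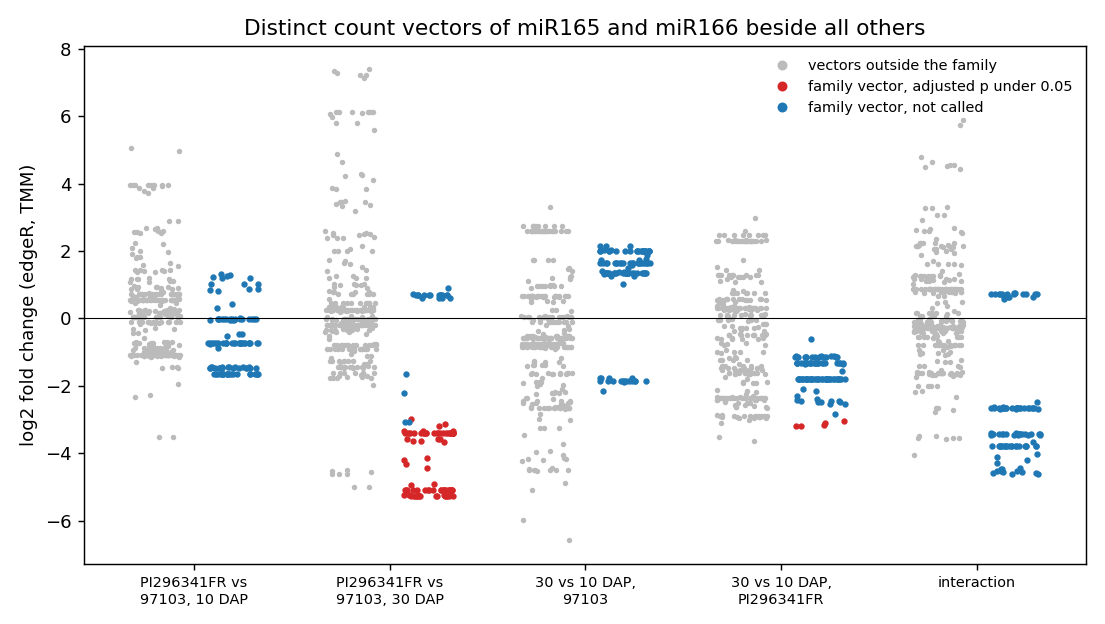
Log2 fold change (edgeR, TMM factors) of the distinct count vectors in 5 comparisons of the genotype set: grey points are the 319 vectors outside the family, red points the family vectors called at an adjusted p under 0.05, and blue points those not called. The 84 called vectors at 30 DAP form bands below 0, and the vectors of cme-miR166e and its like lie above 0.

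The cultivar 97103 at 10 and 30 DAP occurs in both sets. Over the 18 names the sets share, scaled on those names alone, cme-miR166b had a log2 difference of 0.46 between 10 and 30 DAP in the genotype set and of 1.25 in the stage set. The difference of -0.78 (SE 0.98, edgeR adjusted p = 0.482) was not called, and it turned to 0.88 without replicate 2 of 30 DAP in the stage set.

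Of other families with roles in organ polarity, boundaries and meristems (miR160, miR164, miR167, miR171, miR319, miR390 and miR396), 12 names were tested in the stage set, none of miR390 or miR396. Of these 12 names, 1 rose and 7 fell from 1 to 5 DAP, with a median of -0.97. From 10 to 20 DAP 2 rose and 1 fell. The shares called of all names were 53.4% and 19.6% at these steps. cme-miR164c, of the family that targets NAC boundary genes, rose by 2.81 at that step (SE 0.31, edgeR adjusted p = 2.87e-06), as cme-miR166b did. cme-miR167b, whose family targets auxin response factors, fell by 0.98 from 1 to 5 DAP (SE 0.36, edgeR adjusted p = 0.0301) and stood at 0.35 from 10 to 20 DAP (adjusted p = 0.529). From 1 to 5 DAP cme-miR171a, whose family targets GRAS factors, fell by 0.95 (edgeR adjusted p = 0.0268), cme-miR319c rose by 1.30 (adjusted p = 0.000833) and cme-miR160a stood at -0.83 (adjusted p = 0.0679).

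In the genotype set 144 vectors of these families were tested, none of miR171. At 30 DAP 24 were higher in PI296341FR and none lower, with a median of 0.25, where 11.3% of the vectors outside miR165 and miR166 were higher. The 24 were 12 of 12 vectors of miR390, 9 of 10 of miR319, 2 of 39 of miR167 and 1 of 40 of miR396. cme-miR390b, of a family that primes tasiRNA production against ARF mRNAs, was higher by 4.87 (SE 1.38, edgeR adjusted p = 0.00263), and rco-miR319b, of the family that targets TCP factors, by 3.46 (SE 0.99, adjusted p = 0.00264). The most abundant names of the other families were not called: gma-miR396i-3p stood at 2.39, cme-miR164d at 0.47, aly-miR160a-3p at 0.44 and ccl-miR167a at -1.47. In 97103 from 10 to 30 DAP 23 of the 144 were lower and none higher. Of the vectors outside miR165 and miR166, again with these 144 included, 11% were lower and 0% higher. That background depended on the scaling. RLE factors called 32 of those vectors higher and 13 lower, and TMM factors without the family 50 higher and 13 lower. The names listed for phloem (miR395, miR398, miR399, miR827 and miR2111) held 0.124 to 0.876% of the counts in the genotype libraries. Of these families only miR395 and miR2111 had tested names there. At 30 DAP the median log2 difference was 1.02 over 5 vectors of miR395 and -0.91 over 15 of miR2111. In the stage set, where only miR2111 had a tested name, the listed names held 0.00996 to 0.115% of the counts. Their part in these results was not tested.

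The names outside the family whose pattern was most like that of cme-miR166b were ranked by Pearson r of log2(scaled CPM + 1), as a description. Over the 18 stage libraries, among 203 names, they were novel_miR_170 (0.83), cpa-miR156b (0.76), cme-miR156a (0.76), cme-miR156d (0.75) and cme-miR156j (0.74). Over the 8 genotype libraries, among 319 vectors, they were aly-miR157d-5p and cme-miR156f (0.85 each), then vvi-miR156a, dpr-miR156a and ptc-miR156k (0.77 to 0.78). The points share their libraries, depth and scaling factors.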

How the data were processed

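Small RNA was measured in flesh of 26 watermelon libraries. Per the labels' protocols, RNA was extracted with Trizol and short fractions were cut from gels for Illumina libraries. The authors deposited raw counts per miRNA name for each library (fastp and BWA are in the submitters' processing notes). The counting rule for reads that match several names is not given in the sources used here. The members and lists were chosen with earlier results of these data known.

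Each set was fitted alone with edgeR 4.0.16 in R 4.3.3 (filterByExpr minimum count 10, TMM factors, quasi-likelihood test, Benjamini-Hochberg adjustment over all tested names, threshold 0.05), which tested 204 of 208 and 1261 of 1263 names. The stage set's common dispersion was 0.0323, the genotype set's 0.422. Copies of a vector were counted once. DESeq2 1.42.0, RLE or no factors, TMM factors without the family, other filters, a replicate block, 1 name per vector and leaving out each library were alternatives. Named members were the 4 listed ones, the 10 most abundant vectors, the extreme vectors per comparison, the 5p names, the 5 names most like cme-miR166b and the most abundant name of each polarity family.

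Replicates of a group differed beyond sampling noise (lowest chi-square per degree of freedom 1.97). In the stage set, with 3 numbers per pair of ages, every correlation of the deviations of same-numbered libraries was over 0.1 between 0 and 1 DAP only (0.23 to 0.76), where a block left cme-miR166b at -0.10 (edgeR adjusted p = 0.890).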

Additional observations from a re-analysis of the deposited data

How the results depend on the processing

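For cme-miR166b in the stage set, the steps from 1 to 5 and from 10 to 20 DAP kept direction and call in every alternative run (-1.72 to -1.37 and 1.64 to 2.13 when 1 library was left out). The step from 5 to 10 DAP ran from -1.15 to -0.61 then, and that from 0 to 1 DAP from -0.23 to 0.12. Without scaling factors 30 against 20 DAP turned to -0.16 and 30 against 0 DAP reached -1.26. When 1 library was left out, the difference between the sets ran from -1.15 to 0.88, the 30 DAP calls from 41 to 87 vectors, the calls with age in 97103 from 0 to 2 and in PI296341FR from 0 to 0, cme-miR166e and cme-miR166g at 30 DAP from -0.42 to 2.47 and -0.47 to 2.28, and osa-miR166h-3p at 10 DAP from -0.23 to 2.0. With 1 name per distinct vector, 41 vectors were called at 30 DAP, where 2 of 319 vectors outside the family were lower and 56 higher. With age in PI296341FR 0 were called then, where 33 outside the family were higher. The calls with age in 97103 numbered 5 with RLE factors, 18 without factors, 86 with TMM factors without the family (cme-miR166b 3.65) and 83 by DESeq2 (3.15). Those in PI296341FR numbered 0 with RLE factors, without factors, with TMM factors without the family and by DESeq2. Of the 319 vectors outside the family these settings called 33, 0, 33 and 32 higher there, and 0 lower. The interaction had 58 calls by DESeq2 (cme-miR166b -3.86). In the genotype set, with 2 numbers per group, pairing could not be settled from the deviations (correlation 0.54 between ages in 97103, 0.29 in PI296341FR, 0.03 between genotypes at 10 DAP). With the replicate block 84 family vectors were called at 30 DAP, 0 at 10 DAP and 3 with age in PI296341FR, and cme-miR166b at 30 DAP was -5.08. Of the 319 vectors outside the family this block called 37 higher and 8 lower at 30 DAP, 15 higher and 2 lower at 10 DAP, and 9 lower with age in PI296341FR. Since 97103 and PI296341FR at 30 DAP deviated in opposite ways (-0.27), numbers were also crossed, a choice made after seeing the data. Family calls then numbered 41 with age in 97103 (cme-miR166b 2.0), 45 in PI296341FR (-1.94), 84 at 30 DAP and 73 for the interaction (-3.94). Of the 319 vectors outside the family, 31 were then higher and 31 lower with age in 97103, and 10 lower in PI296341FR. At 30 DAP 40 of them were higher and 8 lower, and for the interaction 1 was higher. The cause of these shifts was not tested. With 2 libraries per group and a spread this wide, a missed call in the genotype set does not show that the values are alike.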
